A study of Mus musculus with 27 samples.

Results

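The genes of MHC class I antigen presentation were followed through non-malignant B cells and B-cell lymphomas of the mouse. They were chosen by name as 9 of the 30735 genes in the deposited expression table: the class I heavy chains H2-K1 and H2-D1, their partner B2m, the peptide transporter genes Tap1 and Tap2, the loading factor Tapbp, the inducible proteasome subunits Psmb8 and Psmb9, and the regulator Nlrc5. RNA was sequenced from 27 samples of B cells purified through B220, a surface antigen of B cells. The 19 lymphomas came from c-myc Igh transgenic mice, of lines that the labels call hv (7 samples), cr (7) and co (4), with 1 more titled hv but described as co. Of these lymphomas, 12 grew in lung, 4 in mesenteric lymph nodes and 3 in peripheral lymph nodes. The LPS group held 4 samples of splenic B cells of healthy mice, 1 each of wt, hv, cr and co, treated for 2 days with lipopolysaccharide, a bacterial cell wall component that makes B cells divide. The resting group held 4 samples of the same genotypes, from spleen, without LPS. The hv, cr and co names of the non-malignant groups are those of the transgenic lines, and wt is the only other genotype. The labels do not say what hv, cr and co stand for, which promoter drives c-myc, or whether each sample was a different mouse, and every p-value rests on the variation among the samples at hand.

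Nearly every cell shows fragments of its own proteins on MHC class I molecules, where CD8 T cells read them. The proteasome cuts proteins into peptides, the Tap transporter carries the peptides into the endoplasmic reticulum, and tapasin (Tapbp) helps to load them onto a heavy chain joined to beta-2-microglobulin. Interferons and NF-kappaB raise these genes, Nlrc5 is the transactivator dedicated to them, and tumours of many kinds are known to carry reduced class I expression.

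The 9 genes were measured well above the limit of the libraries, which held between 11531400 and 32032600 read pairs as recovered from the steps of the TPM values (a transcript's share of its library, corrected for length). A member rested on between 320 and 41799 read pairs in a sample. All 8 markers of B cells were detected, with summed levels of 1306 to 3844 TPM in lymphomas, 1048 to 2115 TPM in LPS cells and 2669 to 4951 TPM in resting cells. Markers of other cell types differed between the groups. The 8 macrophage markers summed to 6.70 to 139 TPM in lymphomas, 5.10 to 18.2 TPM in LPS cells and 136 to 909 TPM in resting cells, and the 8 T-cell markers to 0.662 to 150 TPM in lymphomas, 2.34 to 12.8 TPM in LPS cells and 13.4 to 128 TPM in resting cells. Erythroid markers, 6 genes, differed most, with sums of 16.2 to 1126 TPM in lymphomas, 164 to 2212 TPM in LPS cells and 11640 to 111340 TPM in resting cells. Neutrophil markers summed to 0.388 to 275 TPM in lymphomas, 0.177 to 14.1 TPM in LPS cells and 13.7 to 585 TPM in resting cells. NK-cell markers summed to 0.483 to 22.5 TPM in lymphomas, 0.632 to 5.06 TPM in LPS cells and 10.2 to 51.3 TPM in resting cells, and dendritic-cell markers to 1.78 to 16.97 TPM in lymphomas, 14.8 to 32.9 TPM in LPS cells and 20.52 to 95.8 TPM in resting cells. Fibroblast markers reached highest in lymphomas, at 0.227 to 56.2 TPM, against 0.0868 to 1.69 TPM in LPS cells and 0.323 to 2.07 TPM in resting cells. Endothelial markers summed to 20.4 to 75.5 TPM in lymphomas, 50.7 to 69.7 TPM in LPS cells and 81.7 to 137.9 TPM in resting cells. Lung epithelium markers summed to 0.0575 to 12.9 TPM, 2.68 to 4.05 TPM and 1.75 to 2.66 TPM in the same order. Since TPM are shares, large transcripts bear on every other value. Haemoglobin took 0.0016 to 0.111% of lymphoma libraries, 0.0163 to 0.22% of LPS libraries and 1.15 to 11% of resting libraries, and the predicted gene Gm20594 took 13.7 to 34.3% of lymphoma libraries, 10.9 to 16.3% of LPS libraries and 17.2 to 19.7% of resting libraries. The predicted gene Gm10800 took 18.6% of the cr LPS library, 2.70% of the hv LPS library, 3.65% of the wt resting library and 3.08% of the lymphoma cr T6, and under 1% of every other library. These libraries are left out in the values given below as without Gm10800. In bulk samples, fewer cells of a type and less RNA per cell cannot be told apart.

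Below, lymphomas are given by their lowest, median and highest value, and the 4 samples of the other groups in the order wt, hv, cr, co. A gene was said to rise or fall where limma (moderated linear models on log2(TPM + 1), over all genes tested) gave a Benjamini-Hochberg adjusted p under 0.05, and fold changes are on that log2 scale.

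The class I heavy chains fell in lymphomas and in LPS cells, each set against resting cells. H2-K1 encodes the K heavy chain, which holds the peptide groove, and lies at chr17:33996017-34000333 on the minus strand (GRCm38). H2-K1 had 126, 360 and 1114 TPM in lymphomas, against 785, 476, 375 and 506 TPM in LPS cells and 1545, 1136, 1290 and 1284 TPM in resting cells. All 19 lymphomas and all 4 LPS samples stood below every resting sample, and lymphomas reached both below and above the LPS samples. H2-K1 fell in lymphomas by 1.76 on the log2 scale (SE 0.47, limma adjusted p = 0.00623) and in LPS cells by 1.34 (SE 0.23, adjusted p = 2.91e-04), each against resting cells.

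H2-D1, the D heavy chain, lies at chr17:35262730-35267499 on the plus strand. It had 143, 321 and 981 TPM in lymphomas, against 523, 332, 279 and 345 TPM in LPS cells and 938, 729, 891 and 786 TPM in resting cells. Of the lymphomas, 16 lay below every resting sample, 2 within the resting range and 1 (hv T15) above it, and all LPS samples lay below it. H2-D1 fell by 1.26 in lymphomas (SE 0.37, limma adjusted p = 0.0121) and by 1.21 in LPS cells (SE 0.21, adjusted p = 3.63e-04). The H2-K1 and H2-D1 levels share some uncertainty, because 24.2% of the 31-base words of H2-K1 transcripts and 26.8% of those of H2-D1 occur in transcripts of other genes, 358 of them in both.

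The upstream sequence of these genes is shown because the class I promoter carries the elements through which NF-kappaB, interferon regulatory factors (IRF) and the Nlrc5 complex act. The RefSeq promoter table (GRCm38.p6) held 7 of the 9 members. The first 2 lines give H2-K1 (chr17:34000348-34000507, minus strand, ending 15 bases before the RefSeq start) and B2m (chr2:122147526-122147685, plus strand, ending 2 bases before it), 5′ to 3′ on the gene's strand. The next lines set equal stretches of 30 bases beside each other, first from the NF-kappaB to the IRF letters in H2-K1 (chr17:34000429-34000458, minus strand) and H2-D1 (chr17:35262923-35262952, plus strand), then from the CRE core to CCAAT in H2-K1 (chr17:34000359-34000388, minus strand), H2-D1 (chr17:35262993-35263022, plus strand) and B2m (chr2:122147609-122147638, plus strand). Capitals mark, on either strand, GGG, any 2 bases and TTCCC (NF-kappaB), GAANNGAAA (IRF), TGACG (CRE core) and CCAAT.
H2-K1 window: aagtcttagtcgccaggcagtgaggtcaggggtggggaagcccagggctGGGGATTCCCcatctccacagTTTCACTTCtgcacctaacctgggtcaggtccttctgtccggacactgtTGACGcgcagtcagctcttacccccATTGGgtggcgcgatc
B2m window: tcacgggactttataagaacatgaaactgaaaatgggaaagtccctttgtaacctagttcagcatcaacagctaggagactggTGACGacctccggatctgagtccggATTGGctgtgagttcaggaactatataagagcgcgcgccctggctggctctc
H2-K1 NF-kappaB to IRF: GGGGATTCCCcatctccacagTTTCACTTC
H2-D1 NF-kappaB to IRF: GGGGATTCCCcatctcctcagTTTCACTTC
H2-K1 CRE core to CCAAT: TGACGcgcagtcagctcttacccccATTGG
H2-D1 CRE core to CCAAT: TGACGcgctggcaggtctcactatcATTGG
B2m CRE core to CCAAT: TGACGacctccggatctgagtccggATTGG

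H2-K1 and H2-D1 were identical at 29 of 30 bases from NF-kappaB to IRF, and at 23 of 30 from the CRE core to CCAAT. The spacing was the same in both, with 21 bases between the starts of the NF-kappaB and IRF letters, 49 to the CRE core and 25 to CCAAT. B2m held its CRE core and CCAAT at the same spacing of 25, although it matched H2-K1 at only 13 of the 30 bases and H2-D1 at 12. Within 200 bases upstream, the NF-kappaB letters were found in H2-K1 and H2-D1 and in 1.25% of all 32851 promoters in the table, and the IRF letters in the same members and in 5% of promoters. The CRE core was found in 5 of the 7 members (H2-K1, H2-D1, B2m, Tap1 and Psmb9) and in 15.7% of promoters, where Tap1 and Psmb9, transcribed away from each other from starts 226 bases apart, share the same site. CCAAT was found in 5 members (H2-K1, H2-D1, B2m, Tapbp and Psmb9) and in 29.3% of promoters. Such matches describe letters and do not show binding. The search took exact letters only, so a promoter without a match may still hold a related element. The B2m window holds gaaactgaaa and gggaaagtccc, each with a base more in the middle than the IRF and NF-kappaB letters allow.

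B2m, beta-2-microglobulin, is the invariant partner without which heavy chains do not reach the surface, and lies at chr2:122147686-122153083 on the plus strand. It had 344, 728 and 2923 TPM in lymphomas, against 1346, 1084, 837 and 917 TPM in LPS cells and 2621, 1888, 2275 and 1896 TPM in resting cells. Of the lymphomas, 18 lay below every resting sample and the lung lymphoma co T30 lay above them, while all LPS samples lay below. B2m fell by 1.45 in lymphomas (SE 0.42, limma adjusted p = 0.0106) and by 1.06 in LPS cells (SE 0.20, adjusted p = 7.01e-04).

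Nlrc5, the class I transactivator, fell in LPS cells and was the most variable member among lymphomas. The gene lies at chr8:94472763-94527272 on the plus strand. It had 9.02, 20.9 and 151 TPM in lymphomas, against 38.4, 29.96, 24.04 and 26.9 TPM in LPS cells and 71.4, 57.1, 71.5 and 55.1 TPM in resting cells. All LPS samples and 16 lymphomas lay below every resting sample, 1 lymphoma lay within the resting range, and 2 lay above it. Nlrc5 fell by 1.08 in LPS cells (SE 0.19, limma adjusted p = 3.78e-04). In lymphomas its log2 difference from resting cells was -1.25 (SE 0.49, adjusted p = 0.0542), which missed the threshold. The adjusted p was 0.039 without co T30, 0.0228 without co T34 and 0.0112 without the lung lymphoma T39, whose 151 TPM was the highest value. The adjusted p was also under the threshold with median-of-ratios scaling of the TPM (0.0311), with TPM recomputed without large transcripts (0.0323) and in lymph node lymphomas alone (3.41e-04). It was 0.163 without Gm10800 (log2 difference -1.14), and ran from 3.41e-04 to 0.193 over 36 alternatives.

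The peptide transporter genes fell in LPS cells and did not pass the test in lymphomas. Tap1 and Tap2 encode both subunits of the transporter that moves peptides into the endoplasmic reticulum. Tap1 (chr17:34187553-34197225, plus strand) had 19.3, 42.5 and 179 TPM in lymphomas, against 118, 60.04, 60.6 and 67.4 TPM in LPS cells and 132, 95.6, 128 and 112 TPM in resting cells. The wt LPS sample lay within the resting range and the other 3 LPS samples below it, as did 14 lymphomas, with 2 lymphomas above. Tap1 fell by 0.65 in LPS cells (SE 0.23, limma adjusted p = 0.0255), and its difference in lymphomas, -1.004 (SE 0.44, adjusted p = 0.0857), missed the threshold.

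Tap2 (chr17:34203527-34216321, plus strand) had 19.4, 32.8 and 117 TPM in lymphomas, against 39.5, 27.6, 23.2 and 28.1 TPM in LPS cells and 51.9, 34.1, 53.4 and 41.5 TPM in resting cells. The wt LPS sample again lay within the resting range, and lymphomas fell on both sides of it, 10 below and 5 above. Tap2 fell by 0.60 in LPS cells (SE 0.21, limma adjusted p = 0.0259), while its difference in lymphomas was -0.28 (SE 0.38, adjusted p = 0.6). The LPS calls of the transporter genes were lost without cr resting (adjusted p = 0.0527 for Tap1 and 0.0776 for Tap2), without cr LPS (0.0655 and 0.0602), without co LPS (0.0642 and 0.0611) and without hv LPS (0.0849 and 0.066), and that of Tap2 also without wt resting (0.0502). They were also lost without the filter on low values (0.0764 and 0.0708) and without Gm10800 (log2 difference -0.31 with adjusted p = 0.319 for Tap1, and -0.33 with 0.259 for Tap2), and exact permutation tests gave an unadjusted p = 0.0857 for Tap1 and 0.0571 for Tap2. For Tap1 in lymphomas the adjusted p was 0.0446 without co T34, 0.0357 with median-of-ratios scaling, 0.0381 with TPM recomputed without large transcripts, 0.0246 in lymph node lymphomas alone and 0.23 without Gm10800, the last 2 being the lowest and highest of 36 alternatives.

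Tapbp, tapasin, bridges the transporter and the empty heavy chain, and lies at chr17:33915899-33929288 on the plus strand. It had 35.1, 63.8 and 199.7 TPM in lymphomas, against 163, 83.1, 66.4 and 80.0 TPM in LPS cells and 138, 107, 157 and 123 TPM in resting cells. The wt LPS sample was above every resting sample and the other 3 LPS samples were below them, while 15 lymphomas lay below, 3 within and 1 (hv T15) above the resting range. Tapbp fell by 0.90 in lymphomas (SE 0.33, limma adjusted p = 0.0369), a call that was lost without any 1 of the resting samples (wt 0.103, cr 0.12, co 0.0749, hv 0.0549), without the filter on low values (0.0583), in lymph node lymphomas alone (0.0786) and in lymphomas with separated names (0.0989). Its difference in LPS cells, -0.49 (SE 0.26, adjusted p = 0.119), passed only without the wt LPS sample (-0.76, adjusted p = 0.00609) or with TPM recomputed without large transcripts (-0.64, adjusted p = 0.0305).

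Of the inducible proteasome subunits, Psmb8 rose in LPS cells and Psmb9 passed in neither comparison with resting cells. Psmb8 replaces the constitutive subunit Psmb5 in the immunoproteasome, which favours cuts that yield class I peptides. Psmb8 (chr17:34197721-34201454, plus strand) had 131, 213 and 479 TPM in lymphomas, against 352, 305, 224 and 295 TPM in LPS cells and 219, 177, 238 and 200.5 TPM in resting cells. The wt, hv and co LPS samples lay above every resting sample and cr LPS within their range, and lymphomas fell on both sides, 9 above and 5 below.

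Psmb8 rose by 0.48 in LPS cells (SE 0.19, limma adjusted p = 0.043), and its difference in lymphomas was 0.13 (SE 0.27, adjusted p = 0.733). The LPS call was lost without any 1 of the resting samples (wt 0.0579, cr 0.0501, co 0.0952, hv 0.122) and without wt LPS (0.123), co LPS (0.0937) or hv LPS (0.111), and without the filter on low values (0.091); an exact permutation test gave an unadjusted p = 0.0571.

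Psmb9 replaces Psmb6, and its gene at chr17:34181988-34187764 (minus strand) overlaps Tap1 by 212 bases in the deposited table. It had 24.02, 66.4 and 226 TPM in lymphomas, against 145, 80.8, 69.1 and 89.5 TPM in LPS cells and 112, 92.5, 117 and 91.3 TPM in resting cells. The wt LPS sample stood above the resting samples and the others below, and lymphomas split into 13 below and 6 above with none between. Neither difference passed the test: -0.51 in lymphomas (SE 0.47, limma adjusted p = 0.423) and -0.15 in LPS cells (SE 0.23, adjusted p = 0.586), the second turning to 0.19 (adjusted p = 0.511) without Gm10800.

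**Figure D1:**
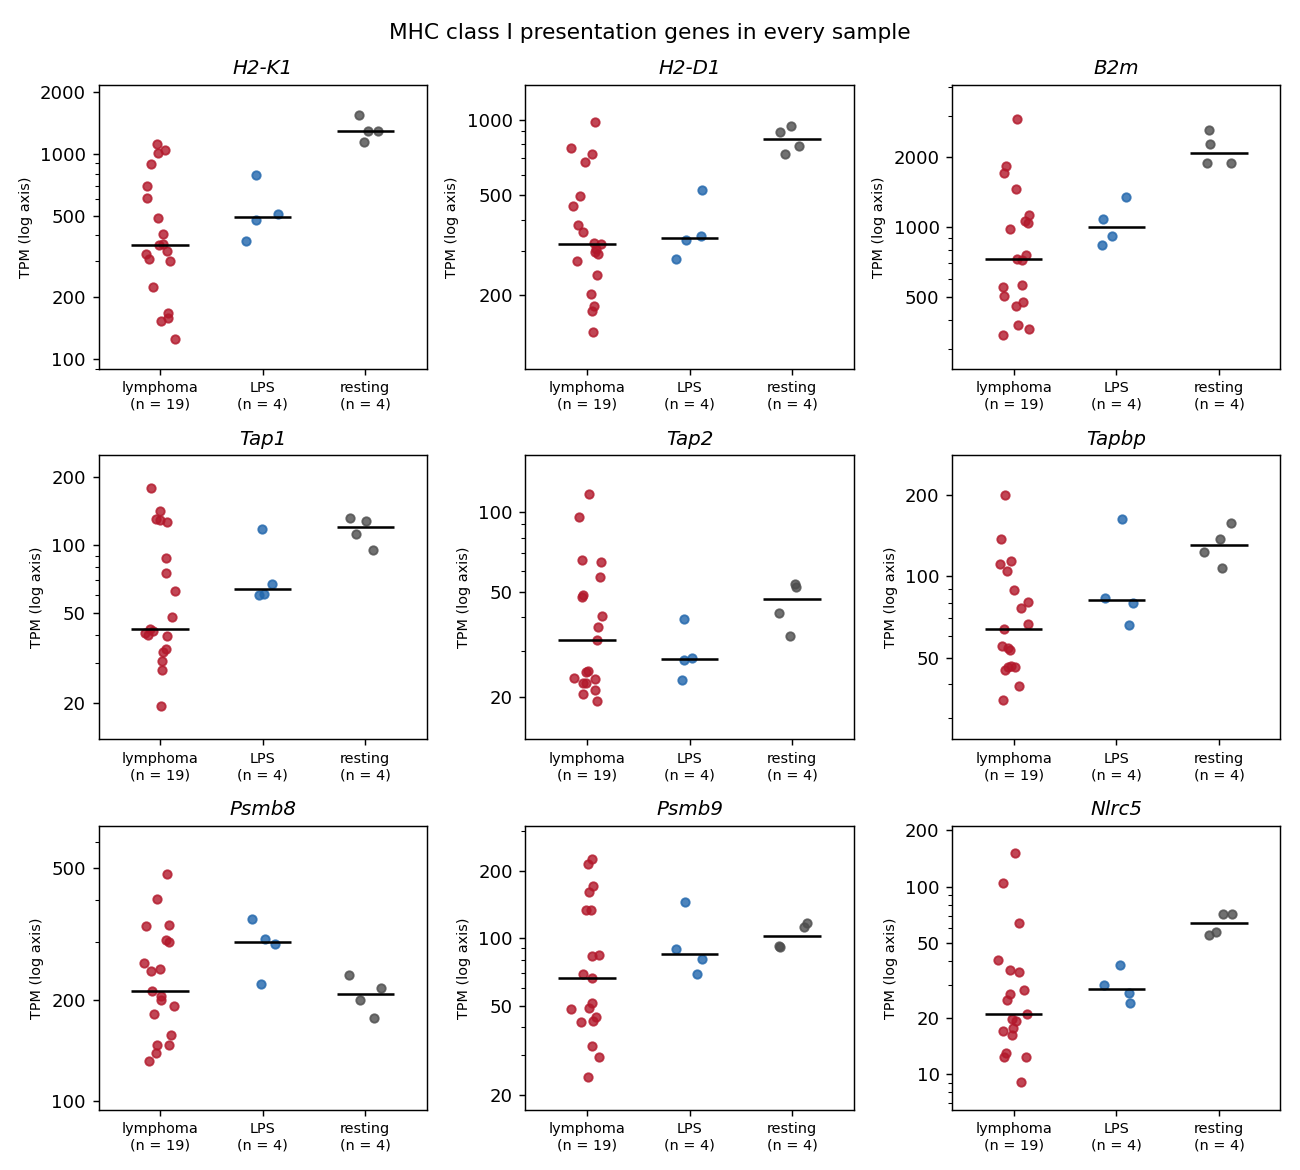
TPM on a log axis of the 9 genes in 19 lymphomas (red), 4 LPS samples (blue) and 4 resting samples (grey), each point 1 sample and each bar the group median. H2-K1 was at 126 to 1114 TPM in lymphomas and at 1136 to 1545 TPM in resting cells, without overlap, while Psmb8 in lymphomas (131 to 479 TPM) spanned both other groups.

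Across the 9 genes, lymphomas differed from resting cells in 1 direction where they differed. In that comparison 4 members fell (H2-K1, H2-D1, B2m and Tapbp), none rose and 5 did not pass, with a median log2 fold change of -1.004 over the members and -0.06 over all 13239 genes tested. Of all genes tested, 31.9% passed, 14.5% as higher and 17.4% as lower. Only for H2-K1 were all 19 lymphomas below all resting samples, which held for 4.92% of the genes tested. Exact permutation tests of single members gave two-sided p = 5.65e-04 for H2-K1, 0.00395 for H2-D1 and 0.0026 for B2m. Without Gm10800, H2-K1 still fell by 1.59 (limma adjusted p = 0.031), whereas H2-D1 (-1.13, adjusted p = 0.0515), B2m (-1.29, 0.0567) and Tapbp (-0.84, 0.119) no longer passed. Of the markers tested beside them, 6 of 8 for macrophages, 6 of 6 for erythroid cells, 3 of 3 for neutrophils, 5 of 6 for NK cells and 5 of 6 for dendritic cells fell. Of T-cell markers 2 of 7 fell, of endothelial markers 2 of 2, and the 1 tested for lung epithelium did not pass. Of 4 fibroblast markers 1 rose and none fell. The part of these cell types in the result was not tested.

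LPS cells were set against the same 4 resting samples. Here 6 members fell (H2-K1, H2-D1, B2m, Nlrc5, Tap1 and Tap2), Psmb8 rose, and Tapbp and Psmb9 did not pass, with a median of -0.65 over the members and -0.16 over all 11999 genes. Most genes tested differed between LPS and resting cells, where 58.2% passed, 25.2% as higher and 33% as lower. For H2-K1, H2-D1, B2m and Nlrc5 all LPS samples lay below all resting samples (exact permutation p = 0.0286, the smallest that 4 against 4 allow), which held for 29.5% of genes tested. Of the markers tested, 7 of 8 for macrophages, 6 of 6 for erythroid cells, 2 of 2 for neutrophils, 4 of 4 for NK cells and 5 of 6 for dendritic cells fell. Of T-cell markers 2 of 5 fell, of endothelial markers 2 of 2, the 1 tested for lung epithelium did not pass, and no fibroblast marker entered the fit. The part of these cell types in the differences was not tested.

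Lymphomas did not differ detectably from LPS cells in any member. All 9 missed the threshold (limma adjusted p from 0.425 to 0.95), none had an unadjusted p under 0.05, and fold changes ran from -0.42 for H2-K1 to 0.32 for Tap2, with standard errors of 0.27 to 0.49. Of 12880 genes tested, 13.8% passed (5.27% as higher, 8.56% as lower), and 28.1% had an unadjusted p under 0.05. For H2-K1, 11 lymphomas were below, 4 within and 4 above the range of the LPS samples. No member had all lymphomas below or all above the LPS samples, which held for 2.05% and 1.29% of the genes tested.

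**Figure D2:**
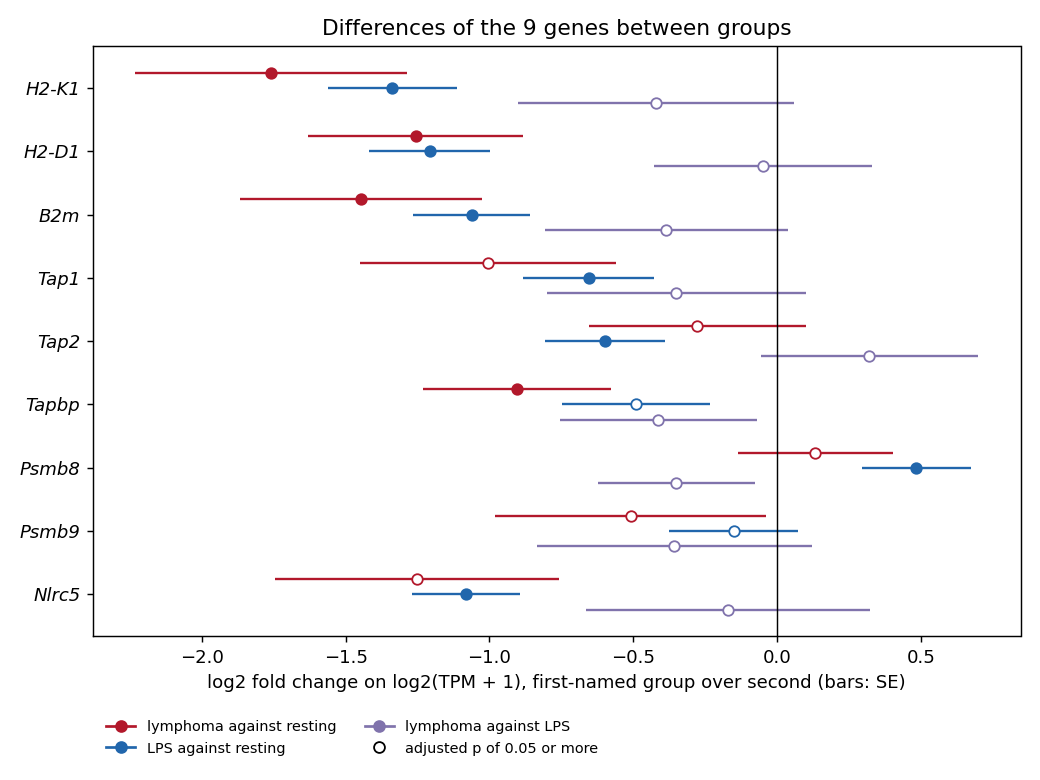
Log2 fold changes (points) with standard errors (bars) of the 9 genes for lymphoma against resting (red), LPS against resting (blue) and lymphoma against LPS (purple); filled points passed at an adjusted p under 0.05. H2-K1, H2-D1 and B2m lie between -1.06 and -1.76 in both comparisons with resting cells, and every open purple point lies between -0.42 and 0.32.

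Single lymphomas ranged from low in all 9 genes to near or above resting cells in most. In 5 lymphomas (hv T1 and cr T9, T16, T6 and T35) all 9 members were below every resting sample. In cr T35 the predicted gene Gm20594 took 34.3% of the library, more than in any other, and in cr T6 it took 22.8% beside 3.08% for Gm10800; their part in these counts was not tested. A further 5 (hv T7, co T9, co T2, cr T14 and cr T20) had 8 members below, and in each of these the member that was not below was Psmb8. The opposite end was held by co T34 with 2 members below and 5 above the resting range, the lung lymphoma T39 and hv T15 with 3 below and 5 above, co T30 with 3 below and 3 above, and hv T5 with 4 below and 2 above. H2-K1 was below the resting range in all of these. The share of all genes outside the resting range was not computed for single lymphomas. The counts therefore describe the 9 members and do not set them apart from other genes.

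The lymphomas at this end differed in which gene stood highest. T39 had the highest Nlrc5 (151 TPM) and Psmb9 (226 TPM), hv T15 the highest H2-K1 (1114 TPM), H2-D1 (981 TPM), Tap2 (117 TPM) and Tapbp (199.7 TPM), co T34 the highest Tap1 (179 TPM), and co T30 the highest B2m (2923 TPM). T39 also had the largest sum of T-cell markers (150 TPM) among lymphomas. The largest sums of macrophage (139 TPM), dendritic-cell (16.97 TPM), endothelial (75.5 TPM) and B-cell markers (3844 TPM) were all in hv T15. The smallest B-cell sum (1306.5 TPM) was in cr T35. The part of these sums was not tested.

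**Figure D3:**
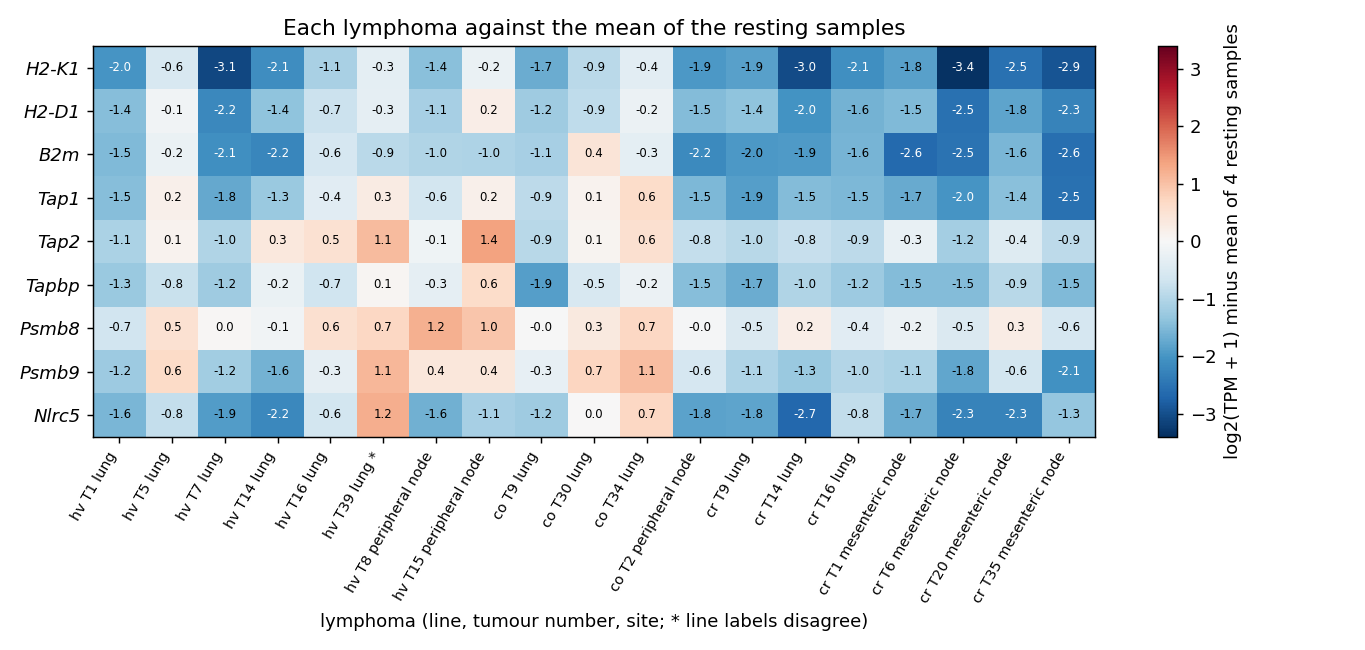
Log2(TPM + 1) of each gene (rows) in each lymphoma (columns, by line and site) minus the mean of the 4 resting samples; blue is lower and red higher than resting, and the star marks the lymphoma whose line labels disagree. H2-K1 is blue in all 19 columns, down to -3.37 in cr T6, while Psmb8 reaches 1.20 in hv T8.

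Between the highest and the lowest lymphoma, Nlrc5 differed 16.7-fold, H2-K1 8.87-fold and Psmb8 3.65-fold. The standard deviation of log2(TPM + 1) over lymphomas was 1.03 for Nlrc5, 0.98 for H2-K1 and Psmb9, 0.92 for Tap1, 0.87 for B2m, 0.78 for Tap2, 0.77 for H2-D1, 0.67 for Tapbp and 0.54 for Psmb8. The median over 7359 genes with a mean of 10 TPM or more was 0.45, and between 65.7% (Psmb8) and 90.8% (Nlrc5) of those genes varied less than a member.

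No member differed between the lines of mice past the threshold. H2-K1 averaged 554 ± 345 TPM in hv (SD, n = 7), 613 ± 308 TPM in co (n = 4) and 244 ± 99.1 TPM in cr lymphomas (n = 7). A fit with line and site as terms was run over 18 lymphomas. There all 9 members were higher in hv than in cr, by 0.32 (Nlrc5) to 1.02 (H2-K1) on the log2 scale. All were also higher in co than in cr, by 0.40 (Tapbp) to 1.52 (Psmb9). Genes as a whole leaned the same way. The median for hv against cr was 0.86 over the members and 0.17 over all genes tested. For co against cr it was 1.13 over the members and 0.12 over all genes. No member passed in either (limma adjusted p from 0.546 to 0.781 and from 0.558 to 0.831). Among all 12480 genes, 0% passed for hv against cr and 0.00801%, a single gene, for co against cr. At an unadjusted p under 0.05, 7 members were higher in hv than in cr (all but B2m and Nlrc5) and 6 in co than in cr (all but Tap2, Tapbp and Psmb8), against 9.13% and 7.7% of all genes in either direction. For hv against co the differences ran from -0.82 (Nlrc5) to 0.45 (Tapbp), no member and 0% of genes passed, and no member and 3.44% of all genes had an unadjusted p under 0.05.

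Site made no detectable difference. Nodes against lung gave member differences from -0.47 (B2m) to 0.28 (Psmb8), none passed (limma adjusted p from 0.941 to 0.998), no member had an unadjusted p under 0.05 and 0.016% of genes passed. Mesenteric lymphomas were all of line cr and peripheral ones of hv or co, so site within the nodes and line cannot be told apart.

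Correlations among the 9 genes over lymphomas were set beside those of other genes in the same libraries. Of 36 pairs, 35 had a Benjamini-Hochberg adjusted permutation p under 0.05 for Pearson's r over the 19 lymphomas, with r from 0.41 to 0.98 and a median of 0.76, and Spearman's rho from 0.40 to 0.95. Over all pairs of 8482 other genes the median r was 0.136, 15.1% of pairs reached the lowest r that passed among the members (0.466), and 0.9% reached the members' median. With median-of-ratios scaling the median over those pairs was -0.002 and 1.33% reached the members' median of 0.694. The pairs share their libraries, so these shares are a description. The closest pair was H2-K1 and H2-D1 (r = 0.981, rho = 0.947, permutation adjusted p = 4e-05, r = 0.981 without the 2 samples farthest from the median), whose reads are divided between similar transcripts. Next came the divergent neighbours Tap1 and Psmb9 (r = 0.94, rho = 0.851, permutation adjusted p = 4e-05, r = 0.915 without the 2 farthest), then H2-D1 and Tap1 (r = 0.913, rho = 0.898, adjusted p = 4e-05 by permutation, r = 0.905 without them).

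H2-K1 and Tap1 followed with r = 0.909 (rho = 0.835, permutation adjusted p = 4e-05, r = 0.882 without the 2 farthest). Tap2 and Tapbp reached r = 0.906 (rho = 0.854, permutation adjusted p = 4e-05, r = 0.831 without the 2 farthest). Nlrc5 was tied to H2-K1 with r = 0.773 (rho = 0.805, permutation adjusted p = 1.2e-04, r = 0.794 without the 2 farthest). Its ties to Tapbp (r = 0.466, rho = 0.396, permutation adjusted p = 0.046, r = 0.374 without the 2 farthest) and to Psmb8 (r = 0.415, rho = 0.426, permutation adjusted p = 0.079, r = 0.578 without them) were the lowest, and the last was the pair that did not pass.

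The lymphomas' names are written in 2 styles, which may mark batches. Among the 9 with joined names, all from lung, 19 pairs passed and the median r was 0.77, with r = 0.971 for H2-K1 and H2-D1 and 0.943 for Tap1 and Psmb9. Among the 10 with separated names 33 pairs passed and the median r was 0.85, with r = 0.987 and 0.947 for the same pairs. With median-of-ratios scaling 32 of the 36 pairs passed over all lymphomas, with a median r of 0.69.

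**Figure D4:**
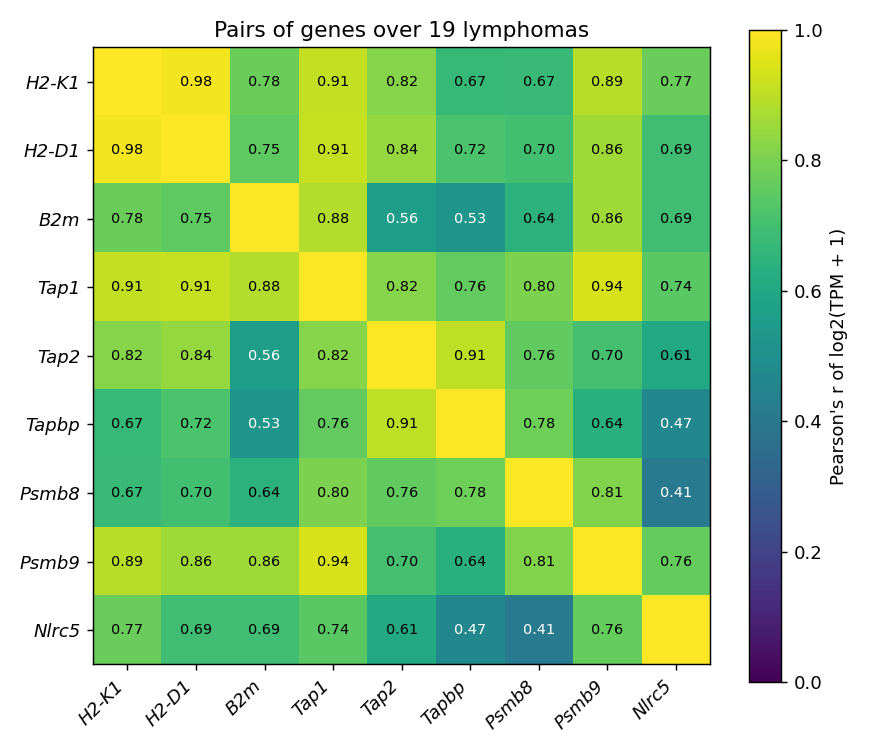
Pearson's r of log2(TPM + 1) between each pair of the 9 genes over 19 lymphomas, with the colour scale from 0 to 1. H2-K1 with H2-D1 (0.98) and Tap1 with Psmb9 (0.94) are the highest pairs, and Psmb8 with Nlrc5 (0.41) is the lowest.

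The mean standardised level of the 9 genes was set against 8482 other genes over the 19 lymphomas as a description. The median Spearman's rho over those genes was 0.28. The genes most alike were Zfp217 and Ikbke (rho = 0.928 each), Parp3 (0.923), Cyfip1 (0.916), Ncoa7 and Mob1a (0.914 each), Ppm1k (0.912), Ube2r2 and Lipa (0.909 each) and Trim34a (0.905), all from shared libraries. Among the listed genes, the class I chain H2-T22 reached 0.9, the class II gene H2-Oa 0.895, the class I chain H2-M3 0.867 and the interferon signalling factor Irf9 0.849, whereas the constitutive subunits Psmb5 (0.0228), Psmb6 (-0.0561) and Psmb7 (-0.0316) had values near 0. The 4 macrophage markers with a mean of 5 TPM or more ranged from 0.721 to 0.768, and their part in the shared variation was not tested.

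The counts of the lists that follow stand beside the shares over all genes tested. These shares were 25.2% higher and 33% lower in LPS cells and 14.5% higher and 17.4% lower in lymphomas, each against resting cells. For lymphomas against LPS cells they were 5.27% higher and 8.56% lower. Of 9 proteasome and proteasome-activator genes outside the members, 4 rose and 1 fell in LPS cells against resting cells, with a median of 0.48, a share of calls close to the 58.2% of all genes. Psmb5 averaged 141 ± 26.0 TPM in LPS cells and 41.4 ± 3.39 TPM in resting cells (SD, n = 4 each), and Psmb6, Psmb7 and Psmb5 rose by 1.27, 1.46 and 1.72 on the log2 scale (limma adjusted p = 9.81e-05, 3.93e-05 and 1.03e-05). In lymphomas against resting cells 3 rose and 1 fell, led by Psmb5 (1.07, adjusted p = 0.00121), Psmb7 (0.79, 0.00376) and the assembly factor Pomp (0.73, 0.00565). Against LPS cells, 3 were lower in lymphomas, namely the activator subunit Psme3 (-0.90, limma adjusted p = 0.00202), Psmb6 (-0.74, 0.0226) and Psmb7 (-0.67, 0.0326).

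Each inducible subunit was set over the constitutive subunit it replaces, as the log2 ratio of TPM + 1, in 9 exact two-sided permutation tests adjusted together. Psmb8 over Psmb5 averaged 1.37 ± 0.59 in lymphomas (SD, n = 19), 1.06 ± 0.10 in LPS cells (n = 4) and 2.30 ± 0.21 in resting cells (n = 4). Psmb9 over Psmb6 averaged -1.15 ± 1.04 in lymphomas, -1.53 ± 0.34 in LPS cells and -0.11 ± 0.15 in resting cells. Psmb10, the third inducible subunit, over Psmb7 averaged -1.03 ± 0.69 in lymphomas, -1.94 ± 0.24 in LPS cells and -0.03 ± 0.05 in resting cells.

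All 4 LPS samples lay below all resting samples in each ratio, with mean differences of -1.24 for Psmb8, -1.42 for Psmb9 and -1.91 for Psmb10 (exact permutation p = 0.0286, the smallest possible, adjusted p = 0.0429 each). The exact permutation adjusted p was 0.0514 without co LPS or without hv LPS, although the remaining LPS samples still lay below all resting samples. The mean differences there were -1.21 and -1.22 for Psmb8, -1.37 and -1.31 for Psmb9, and -1.81 and -1.90 for Psmb10. An adjusted p also depends on the other tests adjusted with it. In lymphomas the ratio fell by 0.93 for Psmb8 (exact permutation adjusted p = 0.0335, 15 of 19 below the resting range) and fell by 1.004 for Psmb10 (0.0335, 16 of 19), while for Psmb9 the difference of -1.04 did not pass (0.0817, 14 of 19). Against LPS cells the Psmb10 ratio was higher in lymphomas by 0.91 (exact permutation adjusted p = 0.0429; 0.0817 without co LPS and 0.0594 without hv LPS), and those of Psmb8 (0.31, 0.36) and Psmb9 (0.38, 0.492) did not pass. Both subunits of a ratio come from the same library, so a library's scale cancels from it.

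**Figure D5:**
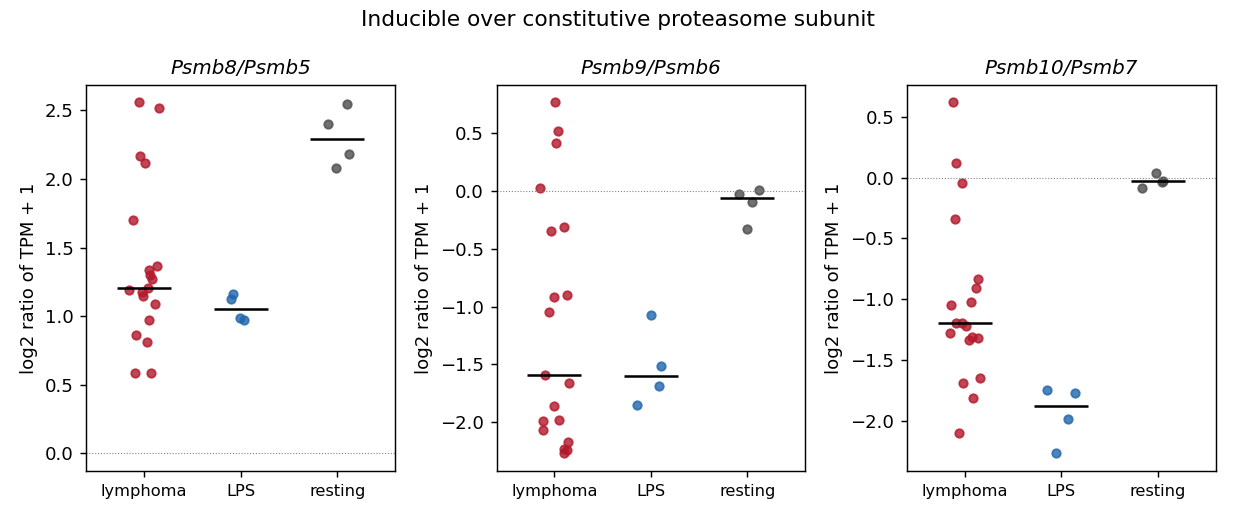
Log2 ratio of TPM + 1 of inducible over constitutive proteasome subunits in lymphomas (red), LPS samples (blue) and resting samples (grey), each point 1 sample and each bar the group median; the dotted line marks equal levels. Resting samples lie at 2.08 to 2.54 for Psmb8 over Psmb5, and LPS samples at 0.97 to 1.16.

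Of 12 genes of peptide trimming and loading, 7 rose and 1 fell in LPS cells, with a median of 0.84, and 3 rose and none fell in lymphomas against resting cells, with a median of 0.12. The share called in lymphomas was below the 31.9% of all genes. The chaperone calnexin (Canx) averaged 235 ± 58.2 TPM in lymphomas (SD, n = 19), 420 ± 68.2 TPM in LPS cells and 144 ± 17.3 TPM in resting cells (n = 4 each). It rose by 0.67 in lymphomas (limma adjusted p = 0.0122) and by 1.53 in LPS cells (adjusted p = 2.32e-05). The insulin-degrading enzyme gene Ide rose by 0.92 in lymphomas and by 1.404 in LPS cells, and Sec61b of the translocon by 0.94 and by 1.14 (limma adjusted p from 3.94e-05 to 0.00551). In lymphomas against LPS cells, 4 of the 12 were lower, led by calreticulin (Calr, -1.15, adjusted p = 0.00361), Hspa5 (-1.09, 0.00248) and Canx (-0.86, 0.00515).

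The other class I chains fell with H2-K1 and H2-D1. Of 17 listed, 14 were tested in lymphomas against resting cells and 12 fell, with a median of -1.67, and all 13 tested in LPS cells fell, with a median of -1.72. None differed between lymphomas and LPS cells. H2-T24 averaged 19.2 ± 14.7 TPM in lymphomas (SD, n = 19), 14.1 ± 5.47 TPM in LPS cells and 81.1 ± 20.6 TPM in resting cells (n = 4 each). It fell by 2.31 in lymphomas (limma adjusted p = 6.97e-04) and by 2.47 in LPS cells (adjusted p = 6.66e-06). H2-Q7 and H2-Q6 fell by 3.27 and 3.05 in lymphomas (adjusted p = 0.0271 and 0.025), and Cd1d1, which presents lipids, and H2-K2 fell by 2.75 and 2.14 in LPS cells (adjusted p = 8.82e-07 and 4.68e-04). H2-Q6 and H2-Q7 share 51.7% and 39.2% of their 31-base words with other genes, so their separate levels are uncertain. The same limit holds for the listed chains H2-T22 (51.7%), H2-T10 (50.8%), H2-Q4 (37.5%), H2-Q10 (30.3%), H2-K2 (26%) and H2-T23 (24.5%). H2-T24 (6.47%) and H2-M3 (4.62%) share fewer words. The chains counted as falling are thus not all separate measurements.

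Of 18 factors that act on class I promoters, 5 fell and 1 rose in lymphomas against resting cells (median -0.55), 8 fell and 3 rose in LPS cells (median -0.50), and none passed between lymphomas and LPS cells. The shares called were close to those of all genes, 31.9% in lymphomas and 58.2% in LPS cells. In lymphomas Irf9 and Stat2, which carry the interferon signal to the nucleus, fell by 2.15 and 2.07 (limma adjusted p = 0.00106 and 4.21e-06). In LPS cells Ciita, the class II transactivator, Irf1 and Stat2 fell by 2.08, 1.81 and 1.81 (adjusted p = 5.03e-06, 6.16e-06 and 3.10e-04).

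Of 9 interferon receptor and signalling genes, 6 fell in lymphomas (median -1.03), where 17.4% of all genes were lower, and 6 fell in LPS cells (median -0.75), where 33% were lower, with none higher. The kinases Jak2 and Jak1 fell by 2.04 and 1.44 in lymphomas and by 1.99 and 1.43 in LPS cells (limma adjusted p from 2.94e-06 to 9.89e-04). The interferon-gamma receptor Ifngr1 averaged 30.96 ± 11.6 TPM in lymphomas (SD, n = 19), 16.9 ± 1.05 TPM in LPS cells and 75.8 ± 13.3 TPM in resting cells (n = 4 each). It fell by 1.32 in lymphomas (adjusted p = 1.23e-04) and by 2.09 in LPS cells (adjusted p = 1.82e-06), and was the only 1 of the 9 to differ between lymphomas and LPS cells (0.77, adjusted p = 0.0264).

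Of 10 interferon-stimulated genes, 9 fell in lymphomas (median -3.92) and 7 in LPS cells (median -2.31), each against resting cells, and none rose. Isg15, a ubiquitin-like modifier, averaged 2.53 ± 2.43 TPM in lymphomas (SD, n = 19), 26.8 ± 17.7 TPM in LPS cells and 96.1 ± 69.1 TPM in resting cells (n = 4 each). It fell by 4.74 in lymphomas against resting cells (limma adjusted p = 9.66e-08) and by 3.10 against LPS cells (adjusted p = 5.94e-05). The antiviral effector Rsad2 fell by 6.48 in lymphomas (limma adjusted p = 7.06e-11) and fell by 5.27 in LPS cells (adjusted p = 7.91e-04). Oasl2 fell by 4.96 in lymphomas (limma adjusted p = 7.14e-09) and fell by 3.91 in LPS cells (adjusted p = 8.68e-05). Irf7 fell by 3.61 in LPS cells (adjusted p = 2.46e-05). Between lymphomas and LPS cells 3 of the 10 were lower in lymphomas, Ifit1 by 2.72 (adjusted p = 4.21e-06) and Rsad2 by 1.20 (0.0242) besides Isg15.

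All 9 MHC class II genes fell in both comparisons with resting cells, with medians of -1.86 in lymphomas and -2.28 in LPS cells, and none passed between lymphomas and LPS cells. H2-Aa, a class II alpha chain, averaged 1007 ± 721 TPM in lymphomas (SD, n = 19), 702 ± 165 TPM in LPS cells and 3648 ± 1128 TPM in resting cells (n = 4 each). It fell by 2.06 in lymphomas (limma adjusted p = 4.05e-04) and by 2.36 in LPS cells (adjusted p = 1.03e-05). H2-Oa fell by 2.88 in lymphomas and fell by 3.46 in LPS cells, H2-Ab1 by 1.92 in lymphomas and H2-Ob by 2.97 in LPS cells (limma adjusted p from 9.22e-06 to 0.00308). Of the 8 B-cell markers, 2 fell in lymphomas (median -0.73) and 7 in LPS cells (median -1.28) against the same resting samples.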

How the data were processed

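The authors' deposited table holds TPM for 88198 Ensembl transcripts of stranded, ribosome-depleted libraries. FastQC, kallisto 0.43 and the build mm10 (GRCm38) are named, per the submitters' processing notes. No source used here gives the annotation release or strand setting, and overlapping genes such as Tap1 and Psmb9 may share reads. TPM were summed to 30735 genes (740 without a symbol). TPM sums to the same total in every library, so a large transcript lowers all others. Depth was recovered from the lowest steps of TPM times effective length, of which 60.7 to 75.6% were whole within 0.02 for 1 to 20 read pairs, so reads were used for depth only.

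A gene entered a fit where 4 or more of its samples had at least 1 TPM, and was tested with limma 3.58.1 (trend and robust settings, R 4.3.3) on log2(TPM + 1), a scale that understates changes of low genes. P-values were adjusted over all genes (Benjamini-Hochberg, threshold 0.05). All 9 members passed the filter in every comparison. Each pair of groups was fitted on its own samples, and lines and sites together on 18 lymphomas, leaving out the lymphoma with disagreeing line labels. Correlations used 100000 permutations. The limma step was tested on simulated data. Groups came from the labels, and same-genotype LPS and resting samples were not treated as pairs. The choice was made because their deviations from the group means correlated above 0.1 in only 2 of 4 genotypes. The values were 0.058 in wt, 0.063 in hv, 0.222 in cr and 0.34 in co, all positive. Between different genotypes they ran from -0.397 (cr LPS with co resting) to 0.298 (wt LPS with co resting). Genotype as a block was run as an alternative.

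Members, gene lists and tests were chosen with earlier results of these data known. Named were all members, up to 3 passing genes of each list with the largest fold changes, and the 10 genes most alike over lymphomas (mean TPM of 5 or more, without predicted genes, pseudogenes and receptor segments); 1 gene that this rule names is not reported here. The proteasome ratios, the correlations over all pairs of genes and the setting without Gm10800 were chosen after seeing the data. Gene symbols were looked up by Ensembl gene ID in a reference table of gene names. Of the deposited transcripts 97.5% were found in GENCODE M21, whose sequences gave the shared 31-base words; no source used here gives the word length of the authors' index. Alternatives were the pseudocount (0.1, 5), the filter, scaling by median of ratios, TPM recomputed without large transcripts, plain limma, exact permutation, a genotype block, subsets of lymphomas and each sample left out. Other tools were biopython 1.88, matplotlib 3.10.9, scipy 1.17.1, numpy 2.4.6 and pandas 2.3.3 in Python 3.11.15.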

Additional observations from a re-analysis of the deposited data

Results flagged for a closer look

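In 54 groups of 4 to 7 samples (6 groups for each of 9 genes), 4 values stood apart from the others of their group by Dixon's test, where chance gives about 1 in 20. Tap1 was high in wt LPS (118 TPM), Tapbp was high in hv T15 among hv lymphomas (199.7 TPM), and cr T20 was high among mesenteric lymphomas for B2m (728 TPM) and Tapbp (66.9 TPM).

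The wt samples moved against the transgenic ones in 2 genes. LPS minus resting was 0.25 for Tapbp in wt, against -0.36 in hv, -1.23 in cr and -0.61 in co, and 0.37 for Psmb9 in wt, against -0.19 in hv, -0.75 in cr and -0.03 in co, on the log2 scale. With 1 sample per genotype and treatment this difference was not tested.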

How the results depend on the processing

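H2-K1 fell against resting cells under every alternative run for LPS cells and for lymphomas. The number of members lower in lymphomas was 1 without Gm10800, against 4 in the report, and 3 to 6 with 1 sample left out. The single member higher in LPS cells (Psmb8) gave a count of 0 without the filter on low values, and 0 to 1 with 1 sample left out. With genotype as a replicate block, the LPS fold changes were the same and the calls of members did not change (7250 genes called, against 6981; H2-K1 fell by 1.34); the samples share only a genotype. TPM recomputed without large transcripts moved the median of all genes to -0.31 in LPS cells and -0.18 in lymphomas, and 33.6% of calls in lymphomas were then higher, against 45.4%. Genes called in lymphomas against resting were 2749 without wt resting cells and 2746 without Gm10800 (2749 to 4607 with 1 sample left out). Against LPS cells they were 1001 in node lymphomas, 1103 without wt LPS and 433 without Gm10800 (821 to 2004 with 1 left out). Nodes against lung called 0 genes without the filter, 1 with median-of-ratios scaling and 0 with naming style as a term (0 to 14 with 1 left out). Co against cr called 0 with a pseudocount of 0.1, without the filter or with naming style (0 to 10 with 1 left out), and hv against cr and hv against co 1 each without the filter. With joined names 19 of 36 pairs passed. Signs turned only for members that had not passed. Psmb9 in LPS cells was 0.19 without Gm10800. For lymphoma against LPS, H2-D1 was 0.075 with joined names, 0.090 in lung lymphomas and 0.13 without wt LPS (-0.17 to 0.13 with 1 left out), and Nlrc5 0.11 in lung lymphomas. For nodes against lung, H2-D1 was 0.12 with median-of-ratios scaling, and H2-D1 0.62 and Tap1 0.33 with naming style. With 1 left out, nodes against lung ran from -0.31 to 0.24 for H2-K1, -0.34 to 0.14 for H2-D1, -0.41 to 0.17 for Tap1, -0.042 to 0.48 for Tap2, -0.019 to 0.43 for Tapbp and -0.11 to 0.36 for Psmb9. For hv against co, H2-D1 was 0.20 with naming style, and with 1 left out the values ran from -0.59 to 0.014 for H2-K1, -0.25 to 0.23 for H2-D1, -0.74 to 0.020 for Tap1, -0.023 to 0.59 for Tap2 and -0.10 to 0.29 for Psmb8. The cause of these changes was not tested.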
